A study of Mus musculus with 4 samples.

Results

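The genes described here are 10 genes of tendon and cartilage matrix in mouse skeletal muscle: Comp, Fmod, Tnmd, Kera, Chad, Cilp2, Angptl7, Thbs4, Prg4 and Scx. They were chosen by name, from a group seen to be low on the wild-type array in these same data, and every probe carrying 1 of these gene names was taken. This gave 11 of 41174 non-control probes, and 10 of 27597 named genes or transcripts. Thbs4 had a pair of probes and the other members had 1 each.

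The mice were 10 weeks old and fed ad libitum, and muscle of each of 4 genotypes was measured on 1 array. WT mice were wild type, TBP-2-/- mice lacked TBP-2 (the Txnip gene, for thioredoxin-interacting protein), ob/ob mice lacked functional leptin, and ob/ob TBP-2-/- mice carried both defects. No promoter, Cre driver or agent is named in the labels, and neither are the muscle taken, the strain, the sex and the number of mice behind an RNA sample. With 1 array per genotype, and with members chosen from these values, no difference below carries a test, and "higher" and "lower" describe these arrays.

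Tendon joins muscle to bone through parallel fibrils of type I collagen, and its cells, the tenocytes, are set apart from other fibroblasts by the transcription factor scleraxis (Scx) and the membrane protein tenomodulin (Tnmd). Small proteins rich in leucine repeats, such as fibromodulin (Fmod), bind collagen and shape its fibrils. Pentameric thrombospondins such as Comp and Thbs4 bridge fibrils and other matrix proteins. In a dissected muscle these transcripts come mainly from tendon ends, the junction of muscle and tendon, and the connective tissue sheets between fibres, and little from muscle fibres themselves. In a bulk sample, fewer cells of a type and less RNA per cell cannot be told apart.

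The arrays had 22675 to 24221 probes well above background, and no spot was saturated. The 75th percentile of the signal, by which each array was scaled, was 280 for WT, 306 for TBP-2-/-, 309 for ob/ob and 261 for ob/ob TBP-2-/-. A printed signal is the unscaled processed signal of the scanner file, in arbitrary units, while every log2 difference and fold uses the scaled level. The error beside a log2 difference is a standard error (SE) from the scanner software's error model, which describes how precisely a spot was read and says nothing of variation from mouse to mouse. Txnip checked the labels, with signals of 13209 on WT and 13142 on ob/ob against 868 on TBP-2-/- and 166 on ob/ob TBP-2-/-. All 14 listed skeletal muscle fibre genes were well above background on every array.

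All 10 members were well above background on all 4 arrays, and WT was the lowest array for all 10. WT was the lowest array for 23.6% of the 14908 genes that were well above background on all 4. Because the members were picked as low on WT, these counts describe the choice and support nothing further.

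**Figure D1:**
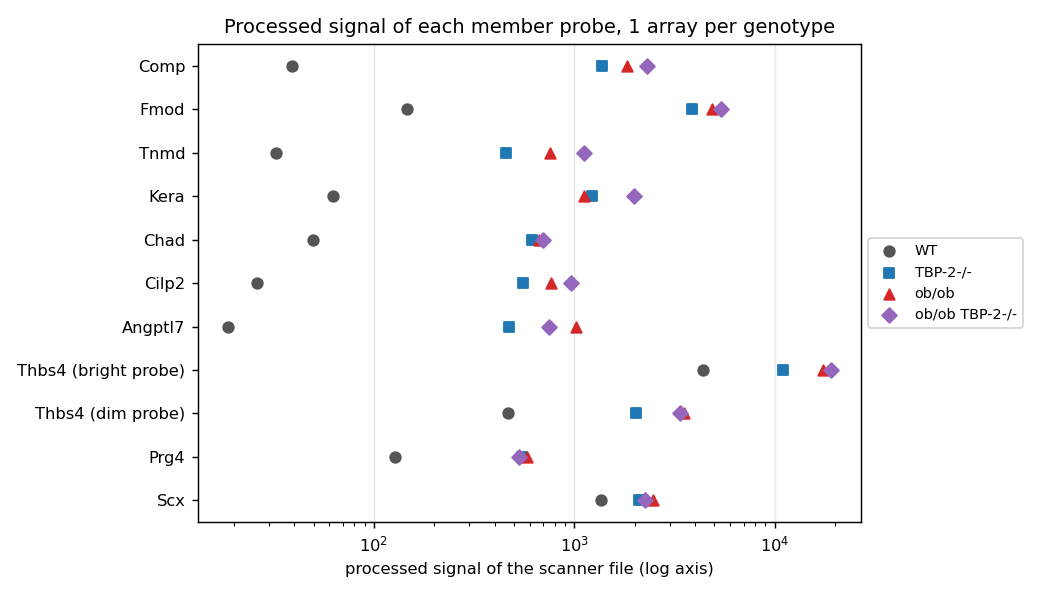
Processed signal (horizontal, log axis) of each of the 11 member probes (rows) on the 4 arrays, with 1 point per array and no replicates. The WT point lies left of the other 3 points in every row, by the widest margin for Comp, Fmod, Tnmd, Kera, Chad, Cilp2 and Angptl7 and by the narrowest for Scx.

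Among the leucine-rich repeat proteins, Fmod, which binds type I collagen and regulates fibril thickness, had signals of 147 on WT, 3877 on TBP-2-/-, 4879 on ob/ob and 5374 on ob/ob TBP-2-/-. The WT value stood alone and the other 3 lay close together. Fmod was 24.1-fold higher on TBP-2-/- than on WT (log2 difference 4.59 ± 0.21 SE), 30.1-fold higher on ob/ob (4.91 ± 0.21) and 39.2-fold higher on ob/ob TBP-2-/- (5.29 ± 0.21). Its probe, with accession NM_021355, lies on chromosome 1 at 135863832 to 135863891 (mm8, the build of the array annotation).

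Kera encodes keratocan, a keratan sulfate proteoglycan first known from the cornea. Its signals were 62.4 on WT, 1228 on TBP-2-/-, 1120 on ob/ob and 1994 on ob/ob TBP-2-/-. Here TBP-2-/- and ob/ob were alike and ob/ob TBP-2-/- was above both. Kera was 18.0-fold, 16.3-fold and 34.2-fold higher than on WT in that order of genotypes. Chad, which encodes chondroadherin, a leucine-rich cartilage protein that binds cells and collagen, had signals of 49.5, 614, 665 and 700 on the arrays in the same order. The 3 arrays other than WT spanned only 1.34-fold, and they were 11.3-fold, 12.2-fold and 15.2-fold above WT. The Kera probe lies on chromosome 10 at 97043284 to 97043343 and the Chad probe on chromosome 11 at 94384912 to 94384971 (mm8).

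Of the thrombospondins, Comp, which encodes cartilage oligomeric matrix protein, had signals of 39.0 on WT, 1373 on TBP-2-/-, 1828 on ob/ob and 2304 on ob/ob TBP-2-/-. It had the largest positive difference from WT of the 15220 genes measured on TBP-2-/- and WT, and ranked 3 from the top on ob/ob and 2 on ob/ob TBP-2-/-. The factors were 32.1-fold (5.01 ± 0.22), 42.5-fold (5.41 ± 0.22) and 63.3-fold (5.98 ± 0.22). Its probe spans 73310782 to 73310915 on chromosome 8 (mm8).

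Thbs4, made by tenocytes and enriched at the junction of muscle and tendon, had 2 probes on chromosome 13 (mm8). The probe at 93852363 to 93852422 gave signals of 4408 on WT, 11072 on TBP-2-/-, 17529 on ob/ob and 19134 on ob/ob TBP-2-/-. The other, at 93855918 to 93855977, gave 469, 2041, 3520 and 3364 in that order. WT was lowest by both probes, but the size of the difference was not the same. On TBP-2-/- the first probe was 2.29-fold higher than on WT (1.20 ± 0.20) and the second 3.97-fold higher (1.99 ± 0.20). On ob/ob the factors were 3.61 and 6.80, and on ob/ob TBP-2-/- they were 4.65 and 7.68.

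Tnmd, the type II membrane protein tenomodulin that marks mature tenocytes, had signals of 32.6 on WT, 454 on TBP-2-/-, 760 on ob/ob and 1117 on ob/ob TBP-2-/-. It was spread more widely than any other member over the 3 arrays above WT, with 2.89-fold between TBP-2-/- and ob/ob TBP-2-/-. It stood 12.7-fold (3.67 ± 0.24), 21.1-fold (4.40 ± 0.24) and 36.7-fold (5.20 ± 0.24) above WT. The probe is on chromosome X at 129209298 to 129209357 (mm8).

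Cilp2, a relative of cartilage intermediate layer protein, had signals of 26.1 on WT, 557 on TBP-2-/-, 769 on ob/ob and 962 on ob/ob TBP-2-/-, which put it 19.5-fold, 26.7-fold and 39.5-fold above WT. Angptl7, a secreted angiopoietin-like protein, was the dimmest member on WT, with a signal of 18.7 against a lowest value of 11.3 for any probe well above background there. Its signals were 475 on TBP-2-/-, 1018 on ob/ob and 746 on ob/ob TBP-2-/-. After scaling at the 75th percentile it was the only member with its highest level on ob/ob, whereas spike-in scaling put 6 members highest there. The differences from WT were 23.2-fold (4.54 ± 0.30), 49.4-fold (5.63 ± 0.30) and 42.8-fold (5.42 ± 0.30). The Cilp2 probe lies on chromosome 8 at 72809570 to 72809629 and the Angptl7 probe on chromosome 4 at 147339675 to 147339734 (mm8).

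Prg4, the lubricating proteoglycan lubricin of joint and tendon surfaces, differed from WT but hardly among the other arrays. Its signals were 127 on WT, 548 on TBP-2-/-, 582 on ob/ob and 533 on ob/ob TBP-2-/-. After scaling it was 3.94-fold, 4.15-fold and 4.49-fold above WT. Its probe spans 152212251 to 152212991 on chromosome 1 (mm8). Scx, the helix-loop-helix factor that drives tendon matrix genes, had signals of 1353, 2113, 2459 and 2243, and it was the member with the smallest differences. It was 1.43-fold (0.51 ± 0.20), 1.65-fold (0.72 ± 0.20) and 1.78-fold (0.83 ± 0.20) above WT, each over 2 SE. Its probe is on chromosome 15 at 76286533 to 76286592 (mm8).

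**Figure D2:**
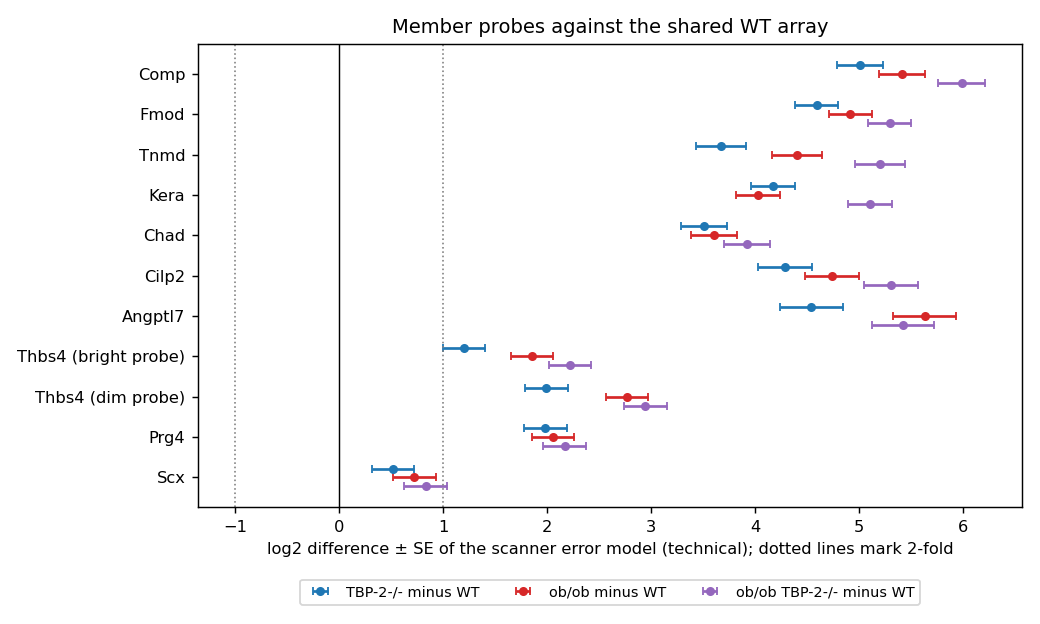
Log2 difference from WT (horizontal) of the 11 member probes (rows) on the other 3 arrays, which share the WT array, with bars of 1 SE of the scanner error model and dotted lines at 2-fold. All points lie right of 0, from 0.51 for Scx on TBP-2-/- to 5.98 for Comp on ob/ob TBP-2-/-.

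Taken as a group, 9 of 10 members were 2-fold or more higher on TBP-2-/- than on WT, 9 on ob/ob and 9 on ob/ob TBP-2-/-, with Scx the exception each time. All 10 were at least 2 SE above WT in each comparison, where 16.4%, 22.6% and 28.5% of all genes were that far apart in either direction. Of all genes well above background on both arrays, 1.73%, 1.88% and 3.89% were 2-fold or more higher in these comparisons. The members' median log2 differences were 3.92, 4.21 and 5.15, against -0.07, -0.05 and -0.03 for all genes measured. The 3 comparisons use the same WT array and the members were chosen for it, so nothing is read from these counts. Scaling on 8 spike-in control probes in place of the 75th percentile left the count at 9 on TBP-2-/- and ob/ob TBP-2-/- and gave 10 on ob/ob. It moved the split of all genes from 264 higher and 134 lower to 451 and 88 on TBP-2-/-, from 283 and 262 to 2262 and 69 on ob/ob, and from 587 and 325 to 768 and 248 on ob/ob TBP-2-/-.

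A gap of 2-fold or more below each of the other 3 arrays was seen on WT for 9 members and for 98 genes in all, or 0.657% of the 14908. Genes with such a gap numbered 15 (0.101%) on TBP-2-/-, 31 (0.208%) on ob/ob and 24 (0.161%) on ob/ob TBP-2-/-. Of 56 spots next to a member's spot and well above background on all arrays, 0 were 2-fold or more lower on WT than the mean of the other arrays. Neighbours dim on any array were left out, so a neighbour too dim on WT was not examined. None of the 11 member spots was marked as an outlier on any array.

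**Figure D3:**
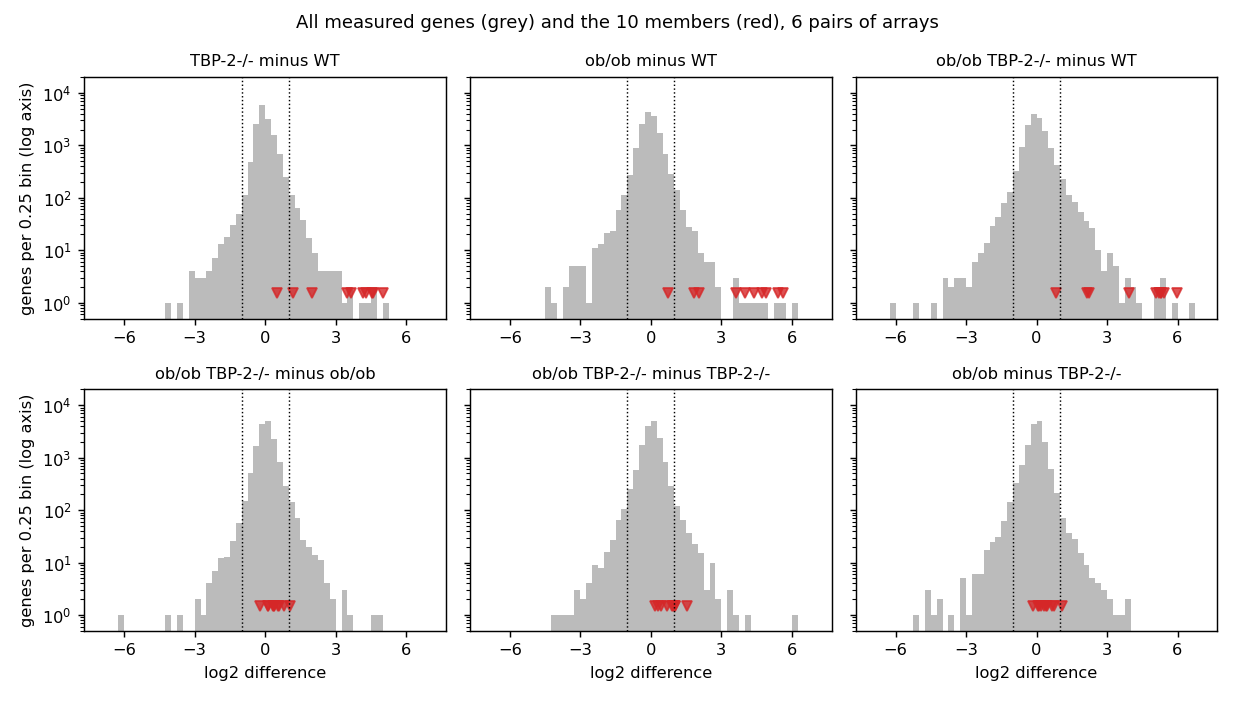
Number of genes (vertical, log axis) by log2 difference (horizontal, bins of 0.25) for genes well above background on both arrays of each of 6 pairs, with the 10 members as red triangles at an arbitrary height and dotted lines at 2-fold. In the upper panels 7 members sit at the right edge of the distribution, and in the lower panels, which leave out WT, the members lie between -0.21 and 1.53.

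Of 6 genes that overlap a member in the RefSeq annotation of GRCm38.p6, 4 had a probe here, and each had smaller differences from WT than the member it overlaps. No probe was matched to the lncRNA genes Gm51533 (at Comp) and Gm33746 (at Cilp2). Scx overlaps Bop1, a ribosome biogenesis gene, whose log2 differences from WT were -0.04, 0.08 and 0.13 on TBP-2-/-, ob/ob and ob/ob TBP-2-/-. Angptl7 overlaps Mtor, the growth-regulating kinase gene, at 0.12, 0.22 and -0.02. Prg4 overlaps Tpr, a nuclear pore gene, which lay at -0.53, -0.51 and -0.21. Acsf2, an acyl-CoA synthetase gene that overlaps Chad, was just past 2-fold higher on TBP-2-/- than on WT, and its differences were -0.25 on ob/ob and -0.26 on ob/ob TBP-2-/-.

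Because the members rank together across the arrays, the bases before their gene starts were searched for E-boxes, the CANNTG motif that helix-loop-helix factors such as scleraxis bind. RefSeq promoter sequences of GRCm38.p6 were matched for 7 of 10 members, all but Comp, Prg4 and Scx, and the 250 bases before the start were read on the gene's strand. An E-box, which reads the same on both strands, occurred in 5 of 7 members and in 66.2% of 32851 promoter sequences of the same length, so the share in the members was close to the background. The form CAGATG, counted on both strands and a subset of CANNTG, occurred in 2 of 7, Fmod and Angptl7, and in 14.4% of all. CAGCTG, another subset, occurred in 0 of 7 and in 13.0% of all. TATAAA, counted on both strands, occurred in Chad alone and in 12.4% of all. Shown here are both members with a CAGATG (Angptl7, which has the most E-boxes, and Fmod), the member with a TATAAA (Chad) and the tenocyte marker Tnmd, with E-boxes in capitals. Their positions are chr4:148500463-148500712 (minus strand), chr1:134037004-134037253 (plus), chr11:94564797-94565046 (plus) and chrX:133850758-133851007 (plus).
Angptl7: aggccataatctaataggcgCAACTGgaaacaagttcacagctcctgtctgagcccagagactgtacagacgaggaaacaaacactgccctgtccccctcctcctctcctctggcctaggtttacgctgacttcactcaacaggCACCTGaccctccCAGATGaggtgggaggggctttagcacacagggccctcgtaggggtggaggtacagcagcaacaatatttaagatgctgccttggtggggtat
Fmod: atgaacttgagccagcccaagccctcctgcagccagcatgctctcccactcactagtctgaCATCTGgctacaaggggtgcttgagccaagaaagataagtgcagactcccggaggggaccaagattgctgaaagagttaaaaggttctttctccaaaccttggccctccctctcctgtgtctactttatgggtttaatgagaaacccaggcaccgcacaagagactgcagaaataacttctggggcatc
Chad: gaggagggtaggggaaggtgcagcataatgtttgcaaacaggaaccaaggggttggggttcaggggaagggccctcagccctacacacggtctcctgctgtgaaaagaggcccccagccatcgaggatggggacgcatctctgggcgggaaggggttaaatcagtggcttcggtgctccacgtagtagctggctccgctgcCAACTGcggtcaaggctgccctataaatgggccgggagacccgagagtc
Tnmd: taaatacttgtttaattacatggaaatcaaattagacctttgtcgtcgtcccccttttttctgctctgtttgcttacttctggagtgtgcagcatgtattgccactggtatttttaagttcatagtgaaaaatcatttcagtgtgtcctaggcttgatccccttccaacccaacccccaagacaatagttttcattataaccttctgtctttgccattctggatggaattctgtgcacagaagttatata
Counted from the gene start, the E-boxes began at -230, -106 and -93 in Angptl7, at -189 in Fmod and at -49 in Chad, and the Chad TATAAA began at -28. No CANNTG was found in the Tnmd or Kera window. A match is a description of the letters, and no binding was measured.

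Among the 3 arrays other than WT, most members had their lowest level on TBP-2-/- and their highest on ob/ob TBP-2-/-. By the brightest probe of each gene, 9 of 10 were highest on ob/ob TBP-2-/- and 9 of 10 were lowest of the 3 on TBP-2-/-. Angptl7 was highest on ob/ob and Kera was lowest on ob/ob. Over all genes well above background on the 4 arrays, ob/ob TBP-2-/- was the highest array for 29.3% and ob/ob for 20.3%. For the lowest of the 3 arrays no share over all genes was computed, so nothing is read from that count. The order of the members' levels depends on scaling: with spike-in scaling 4 members were highest on ob/ob TBP-2-/- and 6 on ob/ob.

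The steps in this order were small beside the gap to WT for most members, and many were within 2 SE. Thbs4 and Scx were exceptions. Their log2 gaps to WT were 1.20 and 0.51, against spans of 1.02 and 0.32 over the other arrays. On ob/ob TBP-2-/- against TBP-2-/-, 10 of 10 members were higher and 8 by at least 2 SE, where 19.6% of 15618 genes were that far apart in either direction. The median log2 difference was 0.91, against 0.04 for all genes. Tnmd (1.53 ± 0.20, 2.89-fold), Thbs4 (1.02 ± 0.20, 2.03-fold) and Cilp2 (1.02 ± 0.20, 2.03-fold) were past 2-fold, as were 1.79% of all genes on the higher side. The second Thbs4 probe was 1.93-fold higher, and with the median over its probes Thbs4 was not past 2-fold, which left 2 members. With spike-in scaling the split of all genes went from 280 higher and 245 lower to 229 and 311, and 1 member, Tnmd, was past 2-fold. Comp lay just short at 1.97-fold and Kera at 1.91-fold. Prg4 and Scx were 1.14-fold and 1.25-fold higher, within 2 SE.

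On ob/ob TBP-2-/- against ob/ob, which share no array with the comparison of TBP-2-/- and WT, the members differed little. Kera alone was 2-fold or more higher (2.10-fold, 1.07 ± 0.20), where 1.91% of 15461 genes were. Tnmd was 1.74-fold (0.80 ± 0.20), Comp 1.49-fold (0.58 ± 0.20) and Cilp2 1.48-fold (0.56 ± 0.20) higher, each over 2 SE, so that 4 of 10 members were that far apart, as were 18.2% of all genes. Fmod, Chad, Thbs4, Prg4 and Scx were 1.08-fold to 1.30-fold higher, within 2 SE, and all 5 turned lower with spike-in scaling. Angptl7 was 1.15-fold lower (-0.21 ± 0.20). The median was 0.37, against 0.04 for all genes, and with spike-in scaling it was -0.17. The split of all genes was 296 higher and 125 lower, and 78 higher and 958 lower with spike-in scaling.

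On ob/ob against TBP-2-/-, Angptl7 alone was past 2-fold (2.13-fold higher, 1.09 ± 0.20), where 1.14% of 15572 genes were. Tnmd was 1.66-fold (0.73 ± 0.20), Thbs4 1.57-fold (0.65 ± 0.20) and Cilp2 1.37-fold (0.45 ± 0.20) higher, each over 2 SE, which with Angptl7 makes 4 of 10 members, against 18.3% of all genes. Comp, Fmod, Chad, Prg4 and Scx were 1.05-fold to 1.32-fold higher within 2 SE. Kera was 1.10-fold lower (-0.14 ± 0.20), which spike-in scaling turned to higher. Spike-in scaling changed the split of all genes from 177 higher and 301 lower to 807 and 110, and put 3 members past 2-fold, Tnmd, Angptl7 and Thbs4.

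**Figure D4:**
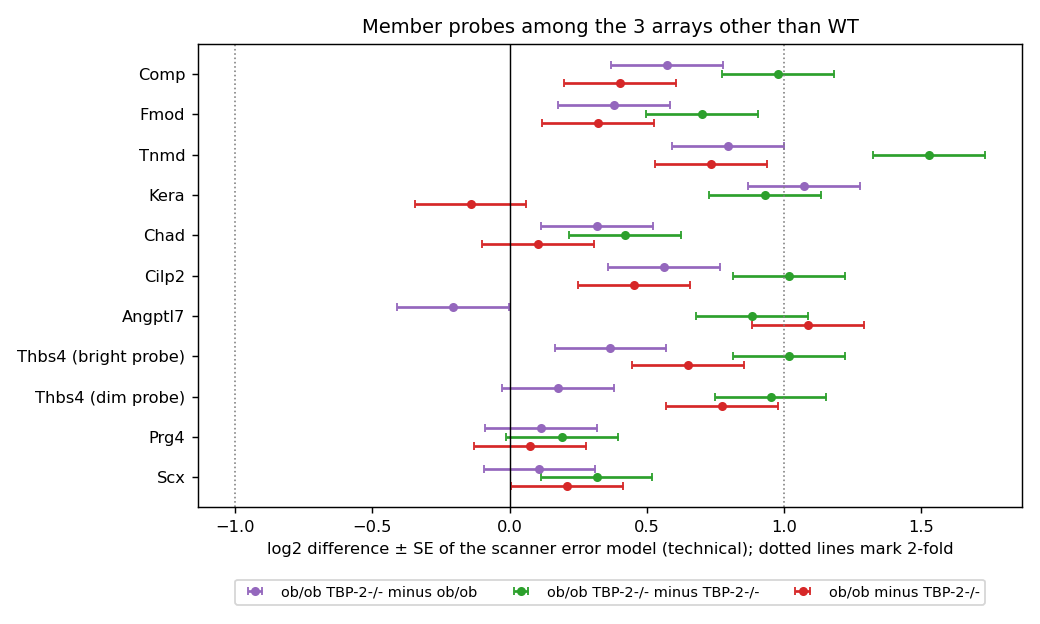
Log2 differences (horizontal) of the 11 member probes (rows) between the 3 arrays other than WT, with bars of 1 SE of the scanner error model and dotted lines at 2-fold. Most points lie between 0 and 1, and Tnmd reaches 1.53 on ob/ob TBP-2-/- minus TBP-2-/-.

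Related genes were taken from lists, without the members. Spike-in scaling would add 0.22 to every log2 difference of TBP-2-/- minus WT given below. Other tendon regulators did not follow 1 pattern. Of 9 tendon transcription factor genes beside Scx, 7 were measured on TBP-2-/- and WT, where 0 were 2-fold or more higher and 1 lower, with a median of 0.07. The lower gene was Egr1, a load-responsive zinc finger factor (-1.73 ± 0.20), with signals of 789, 260, 436 and 190 on WT, TBP-2-/-, ob/ob and ob/ob TBP-2-/-. Eya2, a transcriptional coactivator, had signals of 29.9, 64.7, 106 and 90.5. Mkx, the homeobox factor Mohawk needed for normal tendon collagen, was chosen here after its values were seen, since it was not well above background on WT. It was at least 5.97-fold, 6.35-fold and 8.59-fold higher on the other arrays in that order, where "at least" means that the dim WT value was raised to the lowest signal well above background on that array, unless its own signal was larger. Six2 was likewise at least 4.36-fold, 23.0-fold and 24.9-fold higher.

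Fibril collagens were higher to very different degrees. Of 11 measured on TBP-2-/- and WT, 2 were 2-fold or more higher and 0 lower, with a median of 0.48. Col11a1, a minor fibril collagen that seeds thin fibrils, had signals of 19.7, 186, 254 and 393 on WT, TBP-2-/-, ob/ob and ob/ob TBP-2-/-, and was 8.62-fold higher on TBP-2-/- than on WT. Its other probes were not well above background on WT, TBP-2-/- and ob/ob. Col12a1, a fibril-associated collagen gene that was dim on WT and named after its values were seen, was at least 6.22-fold, 10.2-fold and 12.5-fold higher on the other arrays, and its second probe was not well above background on any array. Col1a1, a chain of the main tendon collagen, had signals of 6921, 20975, 17392 and 29615, a 2.77-fold difference between the first pair, and Col1a2, the other chain, was 1.90-fold higher. These were also the collagens with the largest differences on ob/ob TBP-2-/- against ob/ob, at 2.25-fold for Col1a2 and 2.01-fold for Col1a1, and 2 of 12 collagens were past 2-fold there. Spike-in scaling lowers every difference of that pair by 0.54 on the log2 scale.

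At the junction of muscle and tendon, 3 of 11 measured genes beside Thbs4 were 2-fold or more higher on TBP-2-/- than on WT and 0 lower, with a median of 0.26. Col22a1, a collagen confined to tissue junctions, had signals of 260, 2389, 4465 and 4572 on WT, TBP-2-/-, ob/ob and ob/ob TBP-2-/-. Ankrd1, a stretch-responsive ankyrin repeat gene of muscle, had 163, 1442, 871 and 1153, and Tigd4 had 30.0, 86.5, 194 and 158. All 3 were lowest on WT, and Ankrd1 alone was highest on TBP-2-/-.

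Of 9 measured leucine-rich proteoglycans beside the members, 1 was 2-fold or more higher on TBP-2-/- than on WT and 0 lower (median 0.33). That gene was Prelp, with signals of 1942, 4293, 5631 and 6213 on WT, TBP-2-/-, ob/ob and ob/ob TBP-2-/-. Omd and Bgn were 1.59-fold and 1.56-fold higher. Decorin (Dcn), the most widely expressed of the family, had signals of 56214, 66911, 52258 and 57569 and differed by 1.09-fold. Lum differed by 1.19-fold. Among relatives of the other members, Thbs2 was 2.83-fold and Thbs3 1.35-fold higher, and Cilp was 1.08-fold lower, with signals of 2050 and 2072. Thbs1, not well above background on WT, was at least 3.68-fold higher. Of 4 measured angiopoietin-like genes beside Angptl7, 1 was 2-fold or more higher and 0 lower. That gene was Angptl4, 3.0-fold higher, with signals of 976, 3209, 428 and 2180 on WT, TBP-2-/-, ob/ob and ob/ob TBP-2-/-. Unlike Angptl7, it was 2.52-fold lower on ob/ob than on WT. On ob/ob TBP-2-/- it was 6.03-fold higher than on ob/ob. Angptl1 and Angptl2 were 1.85-fold and 1.31-fold higher on TBP-2-/- than on WT. Cnmd, the cartilage relative of Tnmd, was not well above background on any array.

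Elastic fibre and sheath genes had a median of 0.66 on TBP-2-/- minus WT, with 3 of 11 past 2-fold higher and 0 lower. These were Mfap4 (1.68 ± 0.20), a microfibril protein gene, Fbln1 (1.15 ± 0.20) and Postn (1.04 ± 0.20), the periostin gene. Tnc, for the load-induced matrix protein tenascin C, was named after its values were seen. It was at least 4.97-fold higher on TBP-2-/- by its brightest probe, and its other 2 probes were not well above background on any array. Of 15 measured crosslinking and assembly genes 0 were past 2-fold in either direction (median 0.37), with Fkbp10, a collagen chaperone gene, 1.73-fold higher. Loxl3, a lysyl oxidase gene of that list that was dim on WT and named after its values were seen, was at least 2.72-fold higher on TBP-2-/-, 1.75-fold on ob/ob and 2.40-fold on ob/ob TBP-2-/-. Of 18 TGF-beta and BMP signalling genes 2 were past 2-fold higher and 0 lower (median 0.25): Ltbp2, a latent TGF-beta binding protein gene (1.51 ± 0.23), and Inhba (1.28 ± 0.22), which encodes an activin subunit.

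Genes of the cartilage and bone lists ranged from not detected to well detected. Of 18 cartilage genes on the array, 8 to 10 were well above background on each array. Another 7 were not well above background on any array, among them Matn1, Col10a1, Col9a3 and Snorc. Acan, the aggrecan gene and named after its values were seen, had signals of 17.0, 18.5, 15.7 and 18.2. Of 8 measured on TBP-2-/- and WT, 2 were past 2-fold higher and 0 lower, with a median of -0.0032. The higher ones were Col11a2, with signals of 85.7, 536, 534 and 875, and Col9a1, with 17.7, 49.2, 57.3 and 85.8. Col2a1, the main cartilage collagen, was 1.45-fold higher, with signals of 854, 1353, 943 and 1326 on WT, TBP-2-/-, ob/ob and ob/ob TBP-2-/-. Sox9, named after its values were seen, had 91.9, 87.5, 98.2 and 78.8. Hapln1, a cartilage link protein gene named after its values were seen, was well above background on WT only (17.8) and at least 2.08-fold, 1.82-fold and 1.82-fold lower on TBP-2-/-, ob/ob and ob/ob TBP-2-/-. Bone-defining Bglap, Ibsp, Sp7 and Dmp1 were not well above background on any array, and 0 of 4 measured bone genes were past 2-fold. Alpl, the brightest of those 4, had signals of 475, 670, 745 and 363. In the joint lining list beside Prg4, 1 of 8 was past 2-fold higher, Col22a1, and 1 lower, Htra4.

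**Figure D5:**
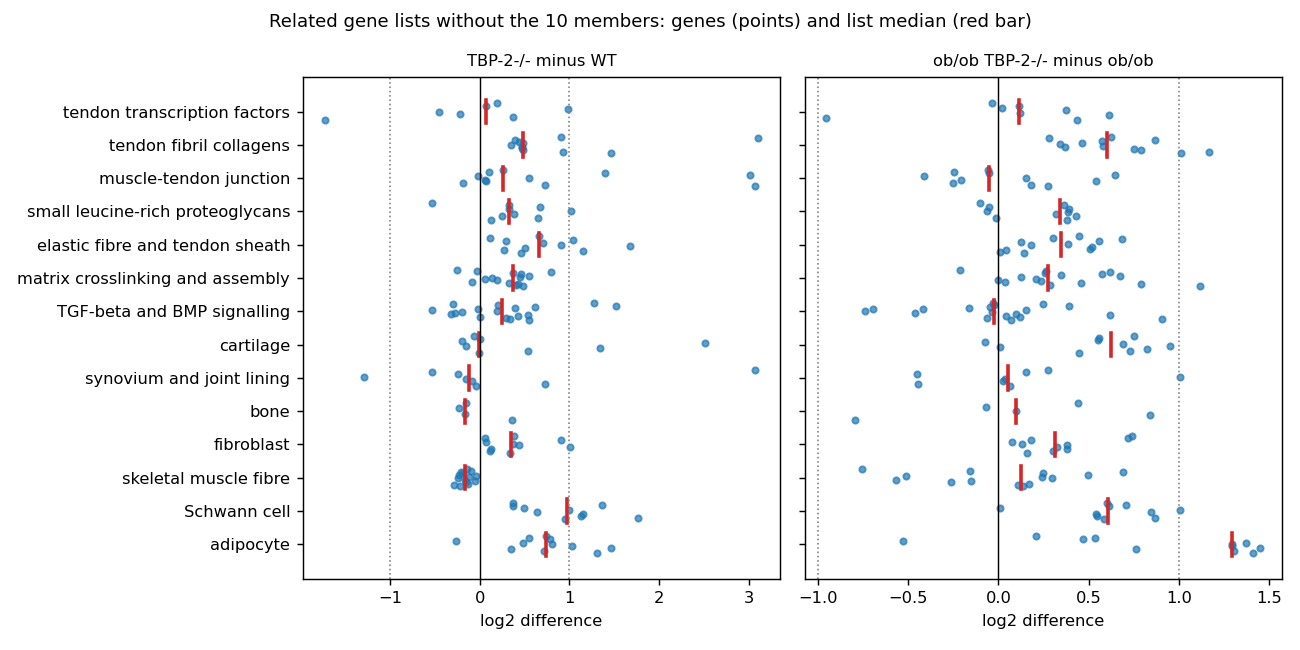
Log2 difference (horizontal) of genes in 14 related lists (rows) without the 10 members, with 1 point per gene well above background on both arrays, a red bar at the list median and dotted lines at 2-fold, for TBP-2-/- minus WT (left) and ob/ob TBP-2-/- minus ob/ob (right), each with its own horizontal range. On the left, points of the collagen, junction (Col22a1 and Ankrd1), cartilage and joint lining (Col22a1 again) rows lie past 2, away from their list medians.

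The non-member genes most like the members were found by the distance between their 3 log2 differences from WT and the members' medians of 3.92, 4.21 and 5.15. Of the 8 taken, Col22a1 (distance 1.27) and Col11a1 (1.28) were well above background on WT. Col8a2, Ecrg4, Cfap52, Wif1, Ccn4 and Six2 were not, so that their WT side is a bound, their distances have no order and none is given. Of the members themselves, Tnmd and Kera were closest to the medians (0.32 each) and Scx farthest (6.51). Col8a2, a short-chain collagen gene, had signals of 194 on TBP-2-/-, 299 on ob/ob and 327 on ob/ob TBP-2-/-. Wif1, which encodes a secreted Wnt inhibitor, had 195, 226 and 181, and Ccn4, a matricellular protein gene, had 122, 154 and 236. The likeness rests on 4 arrays and on the same differences from WT by which the members were picked.

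Markers of other cell types were compared on the same arrays. The summed scaled level of 10 Schwann cell genes, all well above background everywhere, was 17.2 on WT, 38.4 on TBP-2-/-, 29.5 on ob/ob and 44.8 on ob/ob TBP-2-/-. Of these 10, 4 were 2-fold or more higher than on WT on TBP-2-/-, 0 on ob/ob and 6 on ob/ob TBP-2-/-. The sum of 11 adipocyte genes, in which a few bright genes weigh most, was 496, 561, 382 and 427. By single genes, 3 of these 11 were 2-fold or more higher and 0 lower on TBP-2-/- than on WT (median 0.74), 1 higher and 1 lower on ob/ob (0.12), and 4 higher and 1 lower on ob/ob TBP-2-/- (0.78). The gene higher on ob/ob was Lep (2.62 ± 0.08), the leptin gene that is itself defective in ob/ob mice, and the lower was Cfd (-3.38 ± 0.20). On ob/ob TBP-2-/- against ob/ob, 6 of 11 were 2-fold or more higher and 0 lower, with a median of 1.30. Of all genes, 1.91% were 2-fold or more higher there. Spike-in scaling lowers every log2 difference of that pair by 0.54. The largest of the 6 was Lep at 1.45, so none of them stays past 2-fold with it. Summed levels were 66.3, 87.8, 65.4 and 78.5 for 9 macrophage genes, and 806, 868, 915 and 1020 for 10 fibroblast genes. The 14 muscle fibre genes summed to 15200, 13500, 13200 and 14200, and 8 endothelial genes to 36.6, 40.8, 37.6 and 34.2. The 4 blood genes on the array, of which 3 were well above background on WT and ob/ob, summed to 34.6, 39.5, 43.3 and 48.1. On the scaled levels summed here, the Schwann cell, fibroblast and blood sums were lowest on WT and highest on ob/ob TBP-2-/-. Each was weighted to a bright gene: Pmp22 (signal 3580 on WT), Gsn (154248) and Hba-a1 (9322). By single genes the fibroblast list had medians of 0.35, 0.13 and 0.39 for TBP-2-/-, ob/ob and ob/ob TBP-2-/- minus WT. Its genes Dpt, Dcn, Ly6a and Clec3b were lower on ob/ob than on WT, and its others higher. Pmp22, Gsn, Dpt and Ly6a were named after their values were seen. The adipocyte, macrophage and endothelial sums on WT lay within the range of the other arrays. The order of the sums depends on scaling. Spike-in scaling raises log2 levels relative to WT by 0.22 on TBP-2-/-, 0.67 on ob/ob and 0.13 on ob/ob TBP-2-/-. The fibroblast and blood sums would then be highest on ob/ob, and the macrophage and endothelial sums lowest on WT. The statements on the Schwann cell and adipocyte sums would hold. Dpt, Dcn, Ly6a and Clec3b would be higher on ob/ob than on WT. The part of these cell types in the members' differences was not tested.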

How the data were processed

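Total RNA of skeletal muscle was labelled with Cy3 and hybridised to 1-colour Agilent mouse arrays, 1 per genotype, per the labels' protocols. Intensity values in the deposited scanner files were made with Agilent Feature Extraction 9.5.3.1, and the processed signal is background-subtracted and detrended within each array, per the file headers. These values are not on a common scale across arrays. The authors also deposited a table of log2 values, which comparison with the scanner signals shows to be scaled at the 75th percentile and centred on each probe's median, with column medians of 0.09, -0.06, -0.01 and 0.01. The treatment of its low values stays unknown.

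Spots marked as outliers (59 to 110 an array) were left out, spots of a probe averaged, and log2 of the processed signal reduced by each array's 75th percentile. Of several probes for a gene the brightest on average stood for it. Probes were named through RefSeq accessions of GRCm38.p6 (24375), symbols (6301) or synonyms (2426), or kept the file's name (8072). Differences were taken where both arrays of a pair were well above background, with a threshold of 2-fold. Probes printed 10 times had a median SD between spots of 0.0612 to 0.0728 (log2). Precision is limited by the number of arrays. The members and lists were chosen with earlier results of these data known. Named genes are all members, up to 3 genes of each list by size of difference on TBP-2-/- minus WT and up to 2 on ob/ob TBP-2-/- minus ob/ob, close relatives of members, and the 8 genes most like them. Txnip and the genes that overlap a member are named as well. Cartilage and bone genes given as not well above background on any array were named after their values were seen. Any further gene is said to be chosen after its values were seen. Lists were described by counts and medians. The counting was checked on simulated data. Alternatives were quantile, spike-in and detected-probe scaling, normexp background correction (offset 50, limma 3.58.1 in R 4.3.3), the authors' deposited table, other probe, filter, outlier and threshold rules. Promoter windows and figures used Python 3.11.15.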

Additional observations from a re-analysis of the deposited data

Results flagged for a closer look

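Angptl7 had opposite signs in the 2 comparisons of mice with and without TBP-2: a log2 difference of 4.54 (SE 0.30) for TBP-2-/- minus WT and -0.21 (SE 0.20) for ob/ob TBP-2-/- minus ob/ob. The difference between these was not tested, the first value rests on the low WT level for which all members were chosen, and the second is about 1 SE from 0. With spike-in scaling 5 other members (Fmod, Chad, Thbs4, Prg4 and Scx) also had opposite signs.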

How the results depend on the processing

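Members' differences from WT kept their sign for 10 of 10 members in all 3 comparisons under quantile, spike-in and detected-probe scaling, normexp, the authors' deposited table, the median over probes and with outlier spots kept, and 9 members stayed 2-fold or more lower on WT than on each other array in those settings. At a 3-fold threshold that count was 8. Normexp, which adds an offset to low signals, reduced the members' medians to 2.53, 3.01 and 3.42 (TBP-2-/-, ob/ob and ob/ob TBP-2-/- minus WT) and left 1 member past 2-fold on ob/ob TBP-2-/- minus TBP-2-/-. It also reduced the count of all genes past 2-fold higher from 264 to 81, 283 to 83, 587 to 232, 296 to 104, 280 to 97 and 177 to 72 in 6 comparisons (TBP-2-/-, ob/ob and ob/ob TBP-2-/- minus WT, ob/ob TBP-2-/- minus ob/ob, ob/ob TBP-2-/- minus TBP-2-/- and ob/ob minus TBP-2-/-), and of those lower from 134 to 56, 262 to 109, 325 to 161, 125 to 53, 245 to 110 and 301 to 107. Spike-in scaling shifted all genes by a median of 0.22, 0.67, 0.13, -0.54, -0.09 and 0.45 in that order, and gave members' medians of 4.14 and 4.88 for TBP-2-/- and ob/ob minus WT, -0.17 for ob/ob TBP-2-/- minus ob/ob and 0.81 for ob/ob minus TBP-2-/-. Members past 2-fold in the comparisons without WT were then 0 (ob/ob TBP-2-/- minus ob/ob), 1 (minus TBP-2-/-) and 3 (ob/ob minus TBP-2-/-), and 6 members were highest on ob/ob and 4 on ob/ob TBP-2-/-. At a 1.5-fold threshold these 3 counts were 2, 7 and 3, and at 3-fold they were 0, 0 and 0, against 1, 3 and 1 at 2-fold. No paired analysis was possible because each genotype had 1 array. Depth in the sense of counts does not exist for arrays, and the dimmest member values, those on WT, carry the largest technical error (SE 0.26 for Angptl7).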

Other observations

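A few genes of the lists stood apart on the ob/ob arrays and not only against WT, and were picked after their values were seen. Ucma, a cartilage matrix gene, was not well above background on WT or TBP-2-/- and had signals of 35.2 on ob/ob and 43.9 on ob/ob TBP-2-/-. Cytl1, a secreted protein gene of cartilage, had signals of 94.2 on WT, 98.4 on TBP-2-/-, 202 on ob/ob and 287 on ob/ob TBP-2-/-. Six2, a homeobox gene of connective tissue, had 53.8 on TBP-2-/- against 285 and 262 on the ob/ob arrays. Thbs1, the thrombospondin that can release TGF-beta from its latent form, had 51.9 against 209 and 150 by its brightest probe, and its other 2 probes were well above background on the ob/ob arrays only. Over the 3 arrays other than WT the members spanned from 1.14-fold (Prg4) to 2.89-fold (Tnmd).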
